A study of Mus musculus with 8 samples.

Results

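Eomes, Tbx21, Zeb2, Prdm1 and Zfp683 are 5 transcription factor genes of effector and memory lymphocytes, and their rows were taken by gene symbol from the 32285 genes counted in each gene expression library. All 5 were found once in every library and passed the low-count filter of every comparison below. RNA of single T cells from mouse bone marrow (C57BL/6) was counted in droplets with the 10x 5′ kit, and companion libraries of the same droplets gave their T cell receptor (TCR) chains, 8 libraries in all. The Runx1::Runx1t1 group carried 1 conditional knock-in allele of the fusion gene together with Mx1-Cre (Runx1 Runx1t1/+; Mx1-Cre), and the Control group carried the same allele without Mx1-Cre (Runx1 Runx1t1/+), although the sample labels call it WT. Both groups were sex-matched littermates given Poly(I:C), 4 doses of 5 mg/kg, and marrow was taken 4 weeks later. Each group had 2 pools of 2 mice, so every comparison of groups rests on 2 pools against 2, and p-values measure only the spread between pools. Mx1-Cre is switched on by interferon throughout the hematopoietic system and in other interferon-responsive tissues. The sort kept live CD3+ cells without mCherry, the reporter of the fusion, so the T cells compared are those in which the fusion was not reported.

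Eomes (eomesodermin) and Tbx21 (T-bet) are related T-box factors that both drive cytotoxic lymphocyte genes. T-bet is known for terminal effector cells and for natural killer T cells, and Eomes for long-lived memory cells and for Gzmk-expressing T cells. Zeb2 is a zinc finger repressor that acts with T-bet in terminal effector cells, Prdm1 encodes the repressor Blimp-1 of effector and regulatory T cells, and Zfp683 encodes its relative Hobit, known from natural killer T cells and tissue-resident lymphocytes. The balance of these factors is commonly read as the position of a T cell between memory and terminal effector states.

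The genes lie on 5 chromosomes of GRCm38, the build of the deposited counts. Eomes (ENSMUSG00000032446) is at chr9:118478212-118486132 on the plus strand, Tbx21 (ENSMUSG00000001444) at chr11:97098071-97115331 on the minus strand, Zeb2 (ENSMUSG00000026872) at chr2:44983632-45117395 on the minus strand, Prdm1 (ENSMUSG00000038151) at chr10:44437177-44528501 on the minus strand, and Zfp683 (ENSMUSG00000049410) at chr4:134053838-134058996 on the plus strand. To show the promoters of the pair whose balance is described and of Prdm1, the 250 bases before a RefSeq start of each (GRCm38.p6) are printed 5′ to 3′ on the strand of the gene, with motif matches in capitals. The windows are chr9:118477939-118478188 for Eomes, chr11:97115332-97115581 for Tbx21 and chr10:44458749-44458998 for Prdm1.
Eomes: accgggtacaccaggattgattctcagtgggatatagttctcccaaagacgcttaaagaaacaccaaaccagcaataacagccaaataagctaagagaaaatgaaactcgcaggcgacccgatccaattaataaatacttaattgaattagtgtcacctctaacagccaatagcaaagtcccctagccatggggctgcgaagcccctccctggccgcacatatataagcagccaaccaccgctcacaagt
Tbx21: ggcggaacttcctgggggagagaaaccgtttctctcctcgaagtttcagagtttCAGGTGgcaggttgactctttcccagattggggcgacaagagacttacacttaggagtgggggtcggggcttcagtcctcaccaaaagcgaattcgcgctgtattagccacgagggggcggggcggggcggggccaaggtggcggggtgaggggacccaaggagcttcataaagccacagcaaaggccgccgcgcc
Prdm1: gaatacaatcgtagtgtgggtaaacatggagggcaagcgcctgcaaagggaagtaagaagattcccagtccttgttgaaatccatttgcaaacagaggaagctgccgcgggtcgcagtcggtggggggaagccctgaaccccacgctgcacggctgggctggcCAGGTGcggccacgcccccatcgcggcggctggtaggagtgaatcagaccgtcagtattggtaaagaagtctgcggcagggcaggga
The motifs searched on both strands were the T-box motif GGTGTGA, the E-box CAGGTG, the AP-1 motif TGAGTCA and the CRE motif TGACGTCA, of which the first 2 can share the letters GGTG. The capitals mark an E-box 196 bases before the start of Tbx21 and another 87 bases before that of Prdm1, and none of the 4 motifs was in the Eomes window. Of 32851 promoter windows of the same length, 17.2% held the E-box, 3.33% the T-box motif, 4.46% the AP-1 motif and 1.55% the CRE motif. The matches are letters in a window and were not tested as binding sites.

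Cells were divided by co-receptor RNA, in which none of the 5 genes plays a part. A unique molecular identifier (UMI) marks 1 captured RNA molecule. Among cells with a UMI of Cd3d, Cd3e or Cd3g, Cd8 T cells had a UMI of Cd8a or Cd8b1 and none of Cd4, Cd4 T cells had a UMI of Cd4 and none of Cd8a or Cd8b1, and co-receptor-negative T cells had neither. Of 53033 cells kept, the Runx1::Runx1t1 pools gave 6833 and 7230 Cd8, 2590 and 2439 Cd4, and 3005 and 1925 co-receptor-negative T cells. The Control pools gave 6005 and 6788 Cd8, 1162 and 1079 Cd4, and 4716 and 4445 co-receptor-negative T cells. Cd4 RNA was often missed: 40.7% and 31.6% of cells with at least 2 Foxp3 UMIs in the Runx1::Runx1t1 pools, and 41.7% and 45.0% in the Control pools, had no Cd4 UMI, so the co-receptor-negative class also holds Cd4 lineage cells. Total UMIs per library lay between 90958101 and 102883449, and 1425 of the kept barcodes occurred in more than 1 library. Runx1t1, whose sequence is part of the fusion, had 115 and 120 UMIs in the whole libraries of the Runx1::Runx1t1 pools and 16 and 44 in those of the Control pools.

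Levels are UMIs of a gene per 1000000 UMIs summed over the cells of a class in a pool (CPM). B cell markers summed to at most 12.2 CPM in any class and pool. In the order Runx1::Runx1t1 pool 1, pool 2, Control pool 1, pool 2, Eomes in Cd8 T cells was at 126, 136, 60.1 and 52.9 CPM. Both Runx1::Runx1t1 pools lay above both Control pools, with means of 130.68 ± 7.16 and 56.53 ± 5.11 CPM (SD, n = 2 pools each). The Cd4 T cells held Eomes at 80.8, 161, 22.7 and 15.8 CPM, again without overlap, and the Runx1::Runx1t1 pools differed from each other more than in Cd8 T cells. In co-receptor-negative T cells it was at 83.5, 86.5, 73.1 and 55.6 CPM, and the groups lay closer together.

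**Figure D1:**
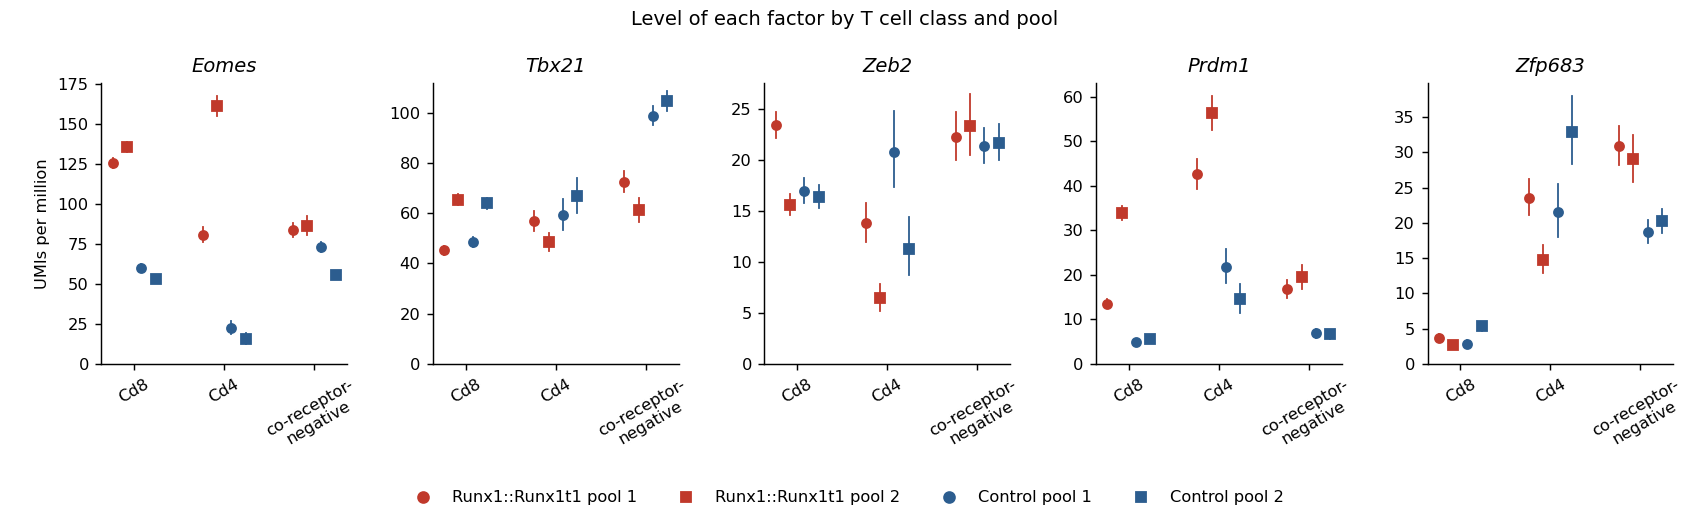
Level of each gene in CPM (linear axis) in Cd8, Cd4 and co-receptor-negative T cells, 1 point per pool with its 95% counting interval. Eomes in Cd8 T cells sits at 126 and 136 in the Runx1::Runx1t1 pools and at 60.1 and 52.9 in the Control pools, while Tbx21 in the same cells overlaps between groups.

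Eomes was higher in the Runx1::Runx1t1 group in Cd8 T cells by a log2 fold change of 1.15 (SE 0.08, adjusted p = 0.0475, edgeR quasi-likelihood test on summed UMIs with Benjamini-Hochberg adjustment over all genes). Of 13330 genes tested there, 0.12% were called in either direction, 16 genes, with 0.0675% higher and 0.0525% lower. The 7 natural killer markers did not move as 1 list in Cd8 T cells. Their median log2 fold change was -1.49 and none was called, while their sum was at 486 and 784 CPM in the Runx1::Runx1t1 pools and 372 and 338 CPM in the Control pools. The sum followed Gzma, a granzyme gene that T cells also express, at 326, 696, 69.5 and 67.6 CPM, and the part of these markers in the Eomes difference was not tested. Eomes in Cd4 T cells had a log2 fold change of 2.69 (SE 0.34, edgeR adjusted p = 0.0183), where 2.11% of genes were called, 1.38% higher and 0.73% lower. In co-receptor-negative T cells it was 0.33 (SE 0.12, edgeR adjusted p = 0.161), where 6.43% of genes were called, 4.12% higher and 2.3% lower. The group difference in Cd8 T cells exceeded that in co-receptor-negative T cells by 0.82 on the log2 scale (SE 0.09, edgeR adjusted p = 0.0389 for the interaction), with 0.89% of genes called in that test, 0.448% higher and 0.441% lower. The co-receptor-negative class is a mixture whose makeup differed between groups, as described below, and the part of this in the interaction was not tested. The Cd8 call rested on both Control pools: without Control replicate 1 the log2 fold change was 1.23 with an adjusted p of 0.305, and without Control replicate 2 it was 1.06 with an adjusted p of 0.218, within a range of 2.1e-24 to 0.305 over 15 alternatives. The interaction lost its call in the same way (adjusted p = 0.166 and 0.14 without Control replicate 1 and 2, range 1.5e-05 to 0.166 over 12 alternatives).

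Tbx21 was lower in the Runx1::Runx1t1 group in co-receptor-negative T cells and was not called in the other classes. In Cd8 T cells it was at 45.2, 65.4, 48.4 and 63.9 CPM, and the pools of a group differed by more than the groups did (log2 fold change -0.09, SE 0.19, edgeR adjusted p = 0.804). Cd4 T cells held it at 56.8, 48.6, 59.3 and 66.8 CPM (log2 fold change -0.21, SE 0.12, edgeR adjusted p = 0.379). Co-receptor-negative T cells held the highest level of the 3 classes in the Control pools, with 72.6, 61.2, 98.8 and 104.6 CPM. There Tbx21 was lower in the Runx1::Runx1t1 group by a log2 fold change of -0.67 (SE 0.10, edgeR adjusted p = 0.0136). This call too was lost without Control replicate 1 (adjusted p = 0.0663) and without Control replicate 2 (0.0574), within a range of 1.5e-05 to 0.245 over 14 alternatives. Natural killer marker RNA (7 genes, none at 0) moved with it, at a sum of 911 and 587 CPM in the Runx1::Runx1t1 pools and 1431 and 1301 CPM in the Control pools, with 5 of the 7 called lower, Klra8 called higher and Gzma not called. Among co-receptor-negative T cells with a UMI of Klrb1c, the NK1.1 gene, Tbx21 was at 115.6, 129.8, 133.5 and 142.6 CPM and was not called (log2 fold change -0.21, edgeR adjusted p = 0.245). Tbx21 in the other kinds of co-receptor-negative cell is given below. The part of the natural killer markers in its group difference was not tested.

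Zeb2 showed no group difference that passed the test in any class. Its level was 23.4, 15.6, 17.0 and 16.4 CPM in Cd8 T cells, 13.8, 6.4, 20.8 and 11.3 CPM in Cd4 T cells, and 22.3, 23.3, 21.4 and 21.7 CPM in co-receptor-negative T cells. In Cd8 T cells 1 pool set the value: Runx1::Runx1t1 replicate 1 was higher than the other 3, and without Runx1::Runx1t1 replicate 2 the log2 fold change of 0.18 became 0.48 with an adjusted p of 0.0455 (range 0.0455 to 0.85 over 15 alternatives). Zeb2 RNA was also abundant outside T cells, with a UMI in 69.5% of cells that had no Cd3 UMI and at least 2 UMIs of the myeloid gene Mpo. Myeloid marker RNA in the co-receptor-negative class was at 60.8 and 132 CPM in the Runx1::Runx1t1 pools and 1544 and 487 CPM in the Control pools, and its part in the Zeb2 level there was not tested.

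Prdm1 was higher in the Runx1::Runx1t1 group in Cd4 and in co-receptor-negative T cells. It was at 42.5, 56.3, 21.7 and 14.5 CPM in Cd4 T cells (log2 fold change 1.49, SE 0.19, edgeR adjusted p = 0.0184) and at 16.8, 19.4, 6.9 and 6.6 CPM in co-receptor-negative T cells (1.34, SE 0.12, edgeR adjusted p = 0.00225). The Cd4 call was lost among cells with 3 or 4 naive markers (0.86, adjusted p = 0.377; range 1.9e-07 to 0.377 over 14 alternatives). In Cd8 T cells it was at 13.5, 33.9, 4.9 and 5.5 CPM, so the groups did not overlap, but the Runx1::Runx1t1 pools lay far from each other and the difference was not called (log2 fold change 2.10, SE 0.40, edgeR adjusted p = 0.0887). It was called in 6 of 15 alternatives, among them DESeq2 (adjusted p = 0.00793) and the fits without Runx1::Runx1t1 replicate 1 (2.59, adjusted p = 0.000148) or replicate 2 (1.37, adjusted p = 0.00885), within a range of 0.000148 to 0.502. Regulatory T cell marker RNA moved with Prdm1 in the co-receptor-negative class, at 510 and 522 CPM against 214 and 193 CPM. Among co-receptor-negative T cells with a Klrb1c UMI, Prdm1 was at 9.4, 7.2, 7.9 and 6.7 CPM and was not called (log2 fold change 0.20, edgeR adjusted p = 0.731).

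Zfp683 passed the test between groups in co-receptor-negative T cells and not in the other classes. Cd8 T cells held it at 3.7, 2.7, 2.9 and 5.3 CPM, where the groups overlapped (log2 fold change -0.42, SE 0.34, edgeR adjusted p = 0.51). Cd4 T cells held it at 23.6, 14.8, 21.5 and 32.9 CPM and the groups overlapped again (-0.46, SE 0.28, edgeR adjusted p = 0.426). In co-receptor-negative T cells it was higher in the Runx1::Runx1t1 group, at 30.9, 29.0, 18.7 and 20.3 CPM (log2 fold change 0.55, SE 0.10, edgeR adjusted p = 0.0249). The call was lost without Control replicate 1 (adjusted p = 0.123) and without Control replicate 2 (0.0673). In the cells with a Klrb1c UMI the levels were 54.6, 75.1, 28.7 and 28.7 CPM, a larger difference (log2 fold change 1.11, edgeR adjusted p = 0.00191), within a range of 0.00191 to 0.123 over 14 alternatives.

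**Figure D2:**
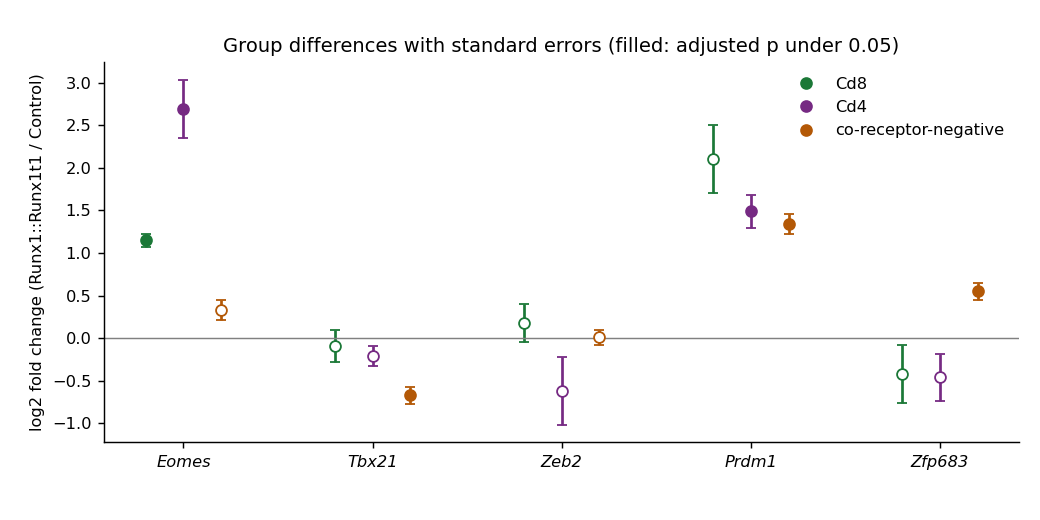
Log2 fold change of the Runx1::Runx1t1 group over the Control group for each gene in each class, with its standard error, from edgeR fits on 2 pools against 2; filled symbols passed an adjusted p of 0.05. Eomes was called in Cd8 (1.15) and Cd4 T cells (2.69), Prdm1 in Cd4 (1.49) and co-receptor-negative T cells (1.34), and Tbx21 was called lower (-0.67) and Zfp683 higher (0.55) in co-receptor-negative T cells.

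The co-receptor-negative class was a mixture in which the factors differed from one kind of cell to the next. Cells with the invariant TRAV11-TRAJ18 chain of natural killer T cells (293, 115, 388 and 364 cells) held Eomes at 11.9, 9.3, 5.0 and 2.0 CPM, below every other kind of co-receptor-negative cell. The same cells held Tbx21 at 129, 168, 142 and 167 CPM and Zfp683 at 126, 164, 130.1 and 132 CPM. All co-receptor-negative cells with a Klrb1c UMI numbered 824, 324, 2237 and 2083, so the weight of the invariant cells beside them differed between groups. The part of this makeup in the Zfp683 difference among cells with a Klrb1c UMI was not tested. Zeb2 was not counted in 1 of these pools, Runx1::Runx1t1 pool 2. Cells with other paired chains and a Klrb1c UMI (313, 134, 1109 and 1056 cells) combined Eomes at 124, 122, 80.6 and 73.8 CPM with Tbx21 at 108, 114, 125 and 130.1 CPM. Cells with a Trdc UMI, the delta chain constant gene, and no TRA or TRB contig (357, 223, 936 and 849 cells) held Eomes at 112, 89.6, 102 and 70.7 CPM and Tbx21 at 79.6, 68.8, 94.7 and 104 CPM. Cells with paired chains and no Klrb1c UMI had the highest Prdm1 in the Runx1::Runx1t1 pools, 26.0 and 32.4 CPM against 5.5 and 7.8 CPM in the Control pools. They held 433, 396, 409 and 279 Eomes UMIs and 236, 127, 397 and 431 Tbx21 UMIs, among 5382543, 3522821, 5999583 and 6181199 total UMIs. Per UMI, Eomes was higher and Tbx21 lower in both Runx1::Runx1t1 pools than in both Control pools. The remaining cells held 217, 129, 506 and 547 Tbx21 UMIs among 3775168, 3134272, 5934075 and 6142793, again lower per UMI in both Runx1::Runx1t1 pools. Eomes overlapped between groups there. Fewer cells of a kind and less RNA per cell cannot be told apart in the summed class, and the share of Klrb1c cells in it differed, 824 of 3005 and 324 of 1925 cells against 2237 of 4716 and 2083 of 4445.

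Between classes, with the pool as a block, Zfp683 was lowest in Cd8 T cells. It was higher in Cd4 than in Cd8 T cells by 2.38 on the log2 scale (SE 0.09, edgeR adjusted p = 4e-06) and higher in co-receptor-negative than in Cd8 T cells by 2.58 (SE 0.23, edgeR adjusted p = 0.000877), in 4 of 4 pools each. The Cd4 against Cd8 contrast called 43.1% of all genes, 22.6% higher and 20.5% lower, and the co-receptor-negative against Cd8 contrast 28.1%, 17% higher and 11.2% lower, so a call by itself was common there. Prdm1 was higher in Cd4 than in Cd8 T cells by 1.14 (SE 0.18, edgeR adjusted p = 0.00195) and lower in co-receptor-negative than in Cd4 T cells by -1.34 (SE 0.09, edgeR adjusted p = 0.000213). All 4 regulatory T cell markers were also called higher in Cd4 than in Cd8 T cells (median log2 difference 2.94). In co-receptor-negative against Cd4 T cells 2 of the 4 were called lower (median -1.06). The part of regulatory T cells in these Prdm1 differences was not tested. Tbx21 was higher in co-receptor-negative than in Cd4 T cells by 0.61 (SE 0.10, edgeR adjusted p = 0.0054), a contrast that called 25.6% of genes, 13.4% higher and 12.2% lower. Against Cd8 T cells it was not called in either of the other classes (adjusted p = 0.136 for Cd4 and 0.104 for co-receptor-negative T cells by edgeR). Zeb2 was lower in Cd4 than in Cd8 T cells by -0.85 (SE 0.20, edgeR adjusted p = 0.011; 0.0602 without Runx1::Runx1t1 replicate 1). Against co-receptor-negative T cells the Cd4 class was also the lower, by 0.94 (SE 0.23, edgeR adjusted p = 0.0253), a call lost without Runx1::Runx1t1 replicate 1 (0.0687), without Control replicate 2 (0.0948) and with a stricter gate of at least 2 co-receptor UMIs (0.0843).

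For Eomes the order of classes depended on the group. In the Control pools it ran from 15.8 to 22.7 CPM in Cd4 T cells, from 52.9 to 60.1 CPM in Cd8 T cells and from 55.6 to 73.1 CPM in co-receptor-negative T cells, the last 2 overlapping. In the Runx1::Runx1t1 pools co-receptor-negative T cells (83.5 and 86.5 CPM) lay below Cd8 T cells, and Cd4 T cells lay on either side of both. Over all 4 pools Eomes was lower in Cd4 than in Cd8 T cells by -0.97 (SE 0.30, edgeR adjusted p = 0.0348), which was lost without Runx1::Runx1t1 replicate 1 (0.0958), Control replicate 1 (0.117) or Control replicate 2 (0.0963) and with the stricter gate (0.0876). The range over 11 alternatives was 0.000321 to 0.117.

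The balance of Eomes and Tbx21 was measured as the log2 ratio of their UMIs in a pool and class. A UMI counts a molecule once whatever the gene's length, but capture can differ between genes, so the ratio is compared between samples and its sign is not read as one factor being more abundant than the other. Cd8 T cells had ratios of 1.47 and 1.05 in the Runx1::Runx1t1 pools and 0.31 and -0.27 in the Control pools. Cd4 T cells had ratios of 0.51 and 1.73 against -1.39 and -2.08, and in co-receptor-negative T cells 0.20 and 0.50 against -0.43 and -0.91. The Runx1::Runx1t1 pools lay on the Eomes side of the Control pools in all 3 classes, by mean differences of 1.24, 2.85 and 1.02 (two-sided exact permutation test, p = 0.33 each, also after adjustment over the 3 classes, and the smallest that 2 pools against 2 allow). The 3 classes come from the same pools and do not count as separate support. The Cd4 ratio by clone size is given below. Across classes the ratio was lower in co-receptor-negative than in Cd8 T cells in 4 of 4 pools, by a mean of -0.80 (SD 0.32, two-sided exact sign-flip test, p = 0.12, the smallest that 4 pools allow). The difference of Cd4 and Cd8 T cells went both ways (mean -0.95, SD 1.15, higher in 1 of 4 pools, exact p = 0.25). Adjusted over the 3 pairs of classes, these p-values are 0.375, 0.375 and, for co-receptor-negative against Cd4 T cells (mean 0.15, SD 1.13), 1.0. The invariant TRAV11-TRAJ18 cells had the lowest ratios of the kinds compared, at -3.44, -4.17, -4.82 and -6.38, of which the last rests on 4 Eomes UMIs.

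**Figure D3:**
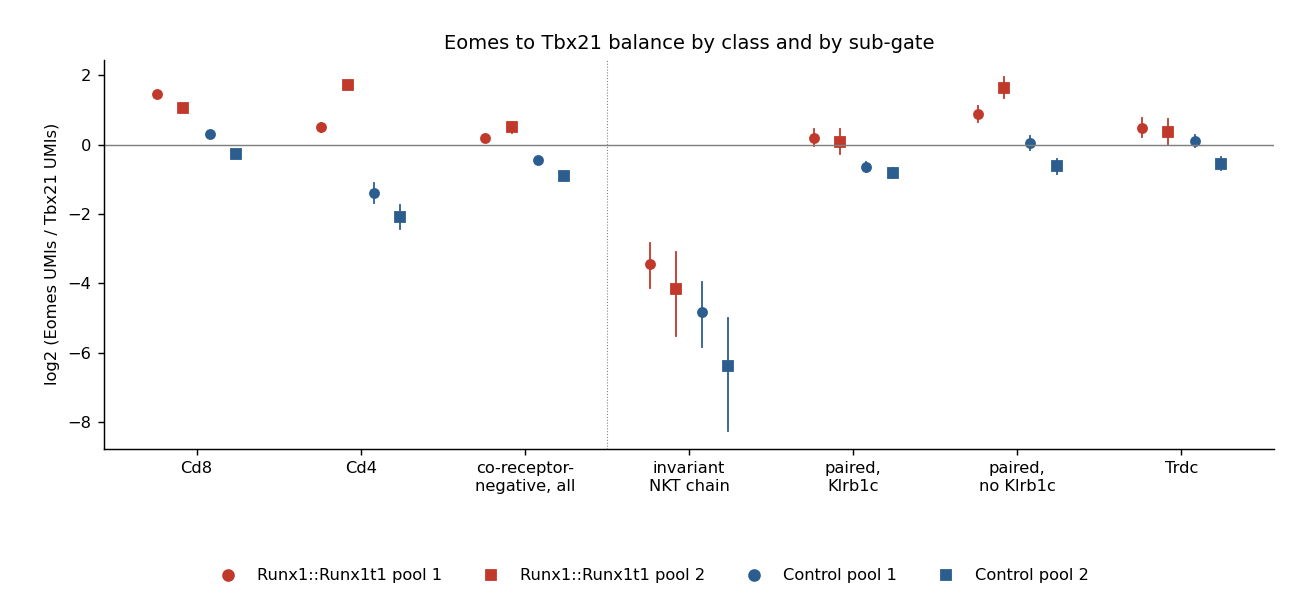
Log2 ratio of Eomes UMIs to Tbx21 UMIs by class and by kind of co-receptor-negative cell, 1 point per pool with its 95% counting interval. In Cd8, Cd4 and all co-receptor-negative T cells both Runx1::Runx1t1 pools lie above both Control pools, and the invariant chain cells lie lowest, between -3.44 and -6.38.

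Single cells were compared after thinning each to 2000 UMIs. A UMI of both Eomes and Tbx21 was then found in 2.42%, 3.35%, 1.31% and 1.68% of Cd8 T cells (14.8%, 21.4%, 9.99% and 11.2% unthinned). The 95% Wilson intervals, for counting error only, were 2.08 to 2.82%, 2.96 to 3.80%, 1.05 to 1.63% and 1.40 to 2.02%. The Runx1::Runx1t1 pools held the higher shares (difference 1.39 percentage points, two-sided exact permutation p = 0.33). The shares in Cd4 T cells were 0.989%, 1.89%, 0.542% and 0.192% (difference 1.07 points, exact p = 0.33). With each clonotype counted once the Cd4 difference turned to -0.0404 points (means of 0.542% and 0.582%, exact p = 1.0). The shares in co-receptor-negative T cells were 1.58%, 1.34%, 2.52% and 1.52%, with overlap (difference -0.56 points, exact p = 0.667). Thinned to 4000 UMIs they were 4.93%, 3.95%, 7.16% and 6.56%, and unthinned 7.49%, 6.55%, 12.8% and 11.7%, both without overlap and with the Control pools the higher (exact p = 0.33 each). Adjusted over the 3 classes the p-values are 0.5, 0.5 and 0.667. In Cd8 T cells the shares were 1.40, 1.17, 1.48 and 1.67 times the product of the shares of each gene, so cells with both were more frequent than the product in every pool; in Cd4 T cells the same ratio ran from 0.668 to 1.68. Thinned Cd8 T cells held an Eomes UMI in 18.97%, 21.7%, 10.1% and 8.69% and a Tbx21 UMI in 9.11%, 13.2%, 8.78% and 11.6%. For comparison, among unthinned cells without a Cd3 UMI and with at least 2 Mpo UMIs (472 cells, median 13080 UMIs), 1.91% had an Eomes UMI and none a Tbx21 UMI. In 59 such cells with at least 2 UMIs of the B cell gene Cd79a (median 3766 UMIs), 1.69% had an Eomes UMI and none a Tbx21 UMI.

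Clone size came from the TCR libraries, a clonotype being 1 pair of TRA and TRB nucleotide sequences within a pool. Cd8 T cells of clonotypes with 2 or more cells (1358, 2457, 386 and 808 cells) were compared with those whose clonotype had 1 cell (4149, 3085, 4357 and 4725 cells), within pools. The 2 kinds also differed in naive state. Cells with a UMI of 3 or 4 of 4 naive T cell markers numbered 103, 36, 75 and 115 among expanded cells. Among single ones they numbered 3379, 2541, 3518 and 3499. The part of naive state in the differences by clone size was not tested. Of the 5 factors 4 were higher in expanded cells, where 22.8% of all genes were called, 11.3% higher and 11.5% lower. Prdm1 differed by 2.84 (SE 0.24, edgeR adjusted p = 0.00268), Zeb2 by 2.71 (SE 0.30, edgeR adjusted p = 0.00478), Tbx21 by 1.27 (SE 0.09, edgeR adjusted p = 0.00224) and Eomes by 0.76 (SE 0.10, edgeR adjusted p = 0.00684) on the log2 scale, each in 4 of 4 pools. The Eomes call was lost without Runx1::Runx1t1 replicate 1 (adjusted p = 0.0631). Zfp683 was not called (0.72, SE 0.34, edgeR adjusted p = 0.173).

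By size of clonotype, Eomes in Cd8 T cells went from 106.6, 109.5, 55.7 and 49.5 CPM in single-cell clonotypes to 204, 202, 124 and 91.1 CPM at 2 to 4 cells and 252, 249, 164 and 103 CPM at 5 to 19 cells. In clonotypes of 20 or more cells it was at 204 and 182 CPM in the Runx1::Runx1t1 pools and 90.1 CPM in Control pool 2, and Control pool 1 had none. Each Runx1::Runx1t1 pool lay above each Control pool at every size. Tbx21 went from 30.05, 42.2, 44.3 and 55.8 CPM in single cells to 94.0, 93.7, 132 and 156 CPM at 5 to 19 cells, with the Control pools the higher at that size. Zeb2 went from 8.1, 7.5, 9.2 and 8.4 CPM to 69.6, 56.5, 139.6 and 83.3 CPM over the same sizes, and again the Control pools were the higher. At 20 or more cells Zeb2 separated the Runx1::Runx1t1 pools from each other, at 109.5 and 21.5 CPM. Prdm1 went from 4.96, 6.57, 3.61 and 3.50 CPM to 44.4, 100.9, 35.2 and 17.9 CPM at 5 to 19 cells. The Eomes to Tbx21 log2 ratio was 1.83, 1.38, 0.33 and -0.17 in single-cell clonotypes and 1.05, 0.995, 0.03 and -0.46 at 2 to 4 cells, lower in 4 of 4 pools. At 5 to 19 cells it was 1.42, 1.41, 0.32 and -0.60, where Runx1::Runx1t1 pool 2 and Control pool 1 lay close to their single-cell ratios. Clonotypes of 20 or more cells had ratios of 0.68 and 0.62 in the Runx1::Runx1t1 pools and -0.82 in Control pool 2. In Runx1::Runx1t1 pool 2 a single clonotype, whose levels are given below, weighed heavily at this size of 1953 cells. Without it, 1134 of 2227 Cd8 T cells in clonotypes of 5 or more cells remained. Its part in the Eomes, Zeb2 and ratio values of that pool was not tested.

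**Figure D4:**
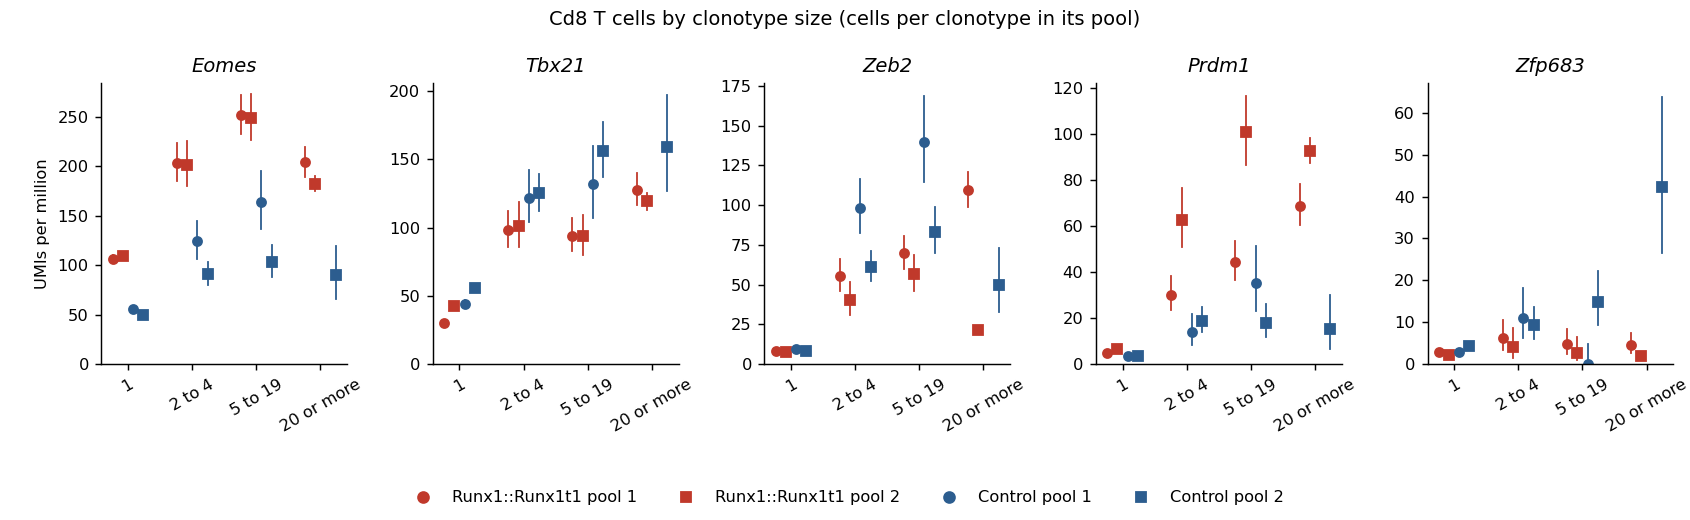
Level of each gene in Cd8 T cells in CPM by number of cells in the clonotype, 1 line per pool. Prdm1, Zeb2 and Tbx21 lie above their single-cell level in larger clonotypes in each pool, and Eomes lies higher in the Runx1::Runx1t1 pools at every size.

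The group difference of Eomes was also called in single-cell clonotypes of Cd8 T cells alone, an alternative chosen after seeing the data, with a log2 fold change of 1.06 (edgeR adjusted p = 0.00113, where the range over 15 alternatives was 2.1e-24 to 0.305). Cells were also split by how many of 4 naive T cell markers, among them Ccr7, Lef1 and Tcf7, had a UMI, again after seeing the data. With 3 or 4 markers, Eomes in Cd8 T cells was at 99.7, 104.6, 50.9 and 43.1 CPM. With 0 or 1 marker it was at 201, 185, 105 and 83.8 CPM, a difference of the same direction that was not called (log2 fold change 0.96, edgeR adjusted p = 0.068). Prdm1 in these marker-poor Cd8 T cells was at 50.6, 88.9, 23.3 and 18.2 CPM, and Zeb2 at 83.4, 34.5, 96.9 and 70.9 CPM.

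In Cd4 T cells the level of Eomes in the 2 groups differed by naive markers and by clone size. With 3 or 4 naive markers it was at 34.9, 39.4, 36.3 and 25.8 CPM and did not pass the test (log2 fold change 0.29, edgeR adjusted p = 0.625). With 0 or 1 marker it was at 105, 219, 12.4 and 10.8 CPM (3.86, edgeR adjusted p = 0.00857, range 3.4e-05 to 0.625 over 14 alternatives). The naive marker sum in all Cd4 T cells was 642 and 732 CPM in the Runx1::Runx1t1 pools and 944 and 889 CPM in the Control pools. By clone size, Eomes in Cd4 T cells was at 24.97, 43.8, 22.3 and 17.4 CPM in single-cell clonotypes and at 208, 357, 12.2 and 3.68 CPM in clonotypes of 5 or more cells (593, 607, 125 and 57 cells). Tbx21 in those larger Cd4 clonotypes was at 66.7, 51.9, 100.7 and 188 CPM, in the opposite order of groups, and Zeb2 at 23.0, 6.5, 50.4 and 44.1 CPM. The Eomes to Tbx21 log2 ratio was -0.86, -0.04, -1.09 and -1.83 in single-cell Cd4 clonotypes. At 5 or more cells it was 1.64 and 2.78 in the Runx1::Runx1t1 pools and -3.05 in Control pool 1, on 7 Eomes UMIs. Control pool 2 had 1 Eomes UMI and no ratio was taken. With each clonotype counted once, the Cd4 ratio differed between groups by 1.99 instead of 2.85. These values by clone size are descriptions, and the cells of 1 clonotype are not independent of each other.

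Clonotypes of 20 or more cells numbered 58, of which 24 and 27 were in the Runx1::Runx1t1 pools and 1 and 6 in the Control pools. The CDR3 nucleotide sequences of the largest in each pool are shown, TRA then TRB, because each names the cells whose factor levels follow.
Runx1::Runx1t1 pool 1, TRAV14-2 with TRAJ9: tgtgcagcagtgggctacaaacttaccttc
Runx1::Runx1t1 pool 1, TRBV10 with TRBJ1-1: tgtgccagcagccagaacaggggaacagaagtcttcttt
Runx1::Runx1t1 pool 2, TRAV6-6 with TRAJ48: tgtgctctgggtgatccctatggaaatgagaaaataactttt
Runx1::Runx1t1 pool 2, TRBV1 with TRBJ2-7: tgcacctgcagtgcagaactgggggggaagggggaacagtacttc
Control pool 1, TRAV10 with TRAJ31: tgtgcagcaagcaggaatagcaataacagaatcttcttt
Control pool 1, TRBV13-3 with TRBJ2-5: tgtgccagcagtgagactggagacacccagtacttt
Control pool 2, TRAV12D-3 with TRAJ7: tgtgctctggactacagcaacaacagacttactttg
Control pool 2, TRBV13-3 with TRBJ2-7: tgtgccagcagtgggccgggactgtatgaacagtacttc
The TRAV14-2 and TRBV10 clonotype had 136 cells, mostly Cd4, with Eomes at 366, Tbx21 at 43.6, Zeb2 at 17.7 and Prdm1 at 155 CPM. The TRAV6-6 and TRBV1 clonotype had 1106 cells, mostly Cd8, with Eomes at 138, Tbx21 at 139, Zeb2 at 20.4 and Prdm1 at 84.2 CPM. The TRAV10 and TRBV13-3 clonotype of Control pool 1 had 35 cells, mostly Cd4, with Tbx21 at 104 CPM and no Eomes UMI among 143859 UMIs, which allows up to 20.9 CPM. The TRAV12D-3 and TRBV13-3 clonotype of Control pool 2 had 40 cells, mostly co-receptor-negative, with Eomes at 5.69, Tbx21 at 279 and Zeb2 at 302 CPM.

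In the Runx1::Runx1t1 pools 21 large clonotypes were mostly Cd4, with Eomes at a median of 326 CPM (0 to 554) and Tbx21 at a median of 45.1 CPM (13.8 to 272). There were 29 mostly Cd8, with Eomes at a median of 205 CPM (114 to 376) and Tbx21 at a median of 104 CPM (33.4 to 285). The 4 mostly Cd8 clonotypes of the Control group, all in pool 2, had Eomes at a median of 83.04 CPM (0 to 174) and Tbx21 at a median of 155 CPM (102 to 223). The 2 mostly Cd4 clonotypes of the Control pools had no Eomes UMI. The Prdm1 median was 84.2 CPM in the mostly Cd8 clonotypes of the Runx1::Runx1t1 pools and 14.4 CPM in the 4 of Control pool 2. Those 4 rest on 1 to 3 Prdm1 UMIs per clonotype and on 1 library. Zeb2 was uneven: of 33 mostly Cd8 clonotypes, 8 held over 100 CPM (133 to 355) and the other 25 at most 77.4 CPM. All 8 were in the Runx1::Runx1t1 pools, which held 29 of the 33, so this count does not set the groups apart. In those pools the Zeb2 median of mostly Cd8 clonotypes was 86.6 CPM in pool 1 and 13.5 CPM in pool 2. The 8 had a Tbx21 median of 207 CPM and a Prdm1 median of 46.5 CPM, and the other 25 had medians of 94.98 and 88.004 CPM. Both mostly co-receptor-negative clonotypes, 1 in each group, held high Zeb2, at 407 CPM in Runx1::Runx1t1 pool 1 and 302 CPM in Control pool 2. The group of 8 was set apart by its Zeb2 values, so its other medians are descriptions, and several large clonotypes come from the same mice.

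**Figure D5:**
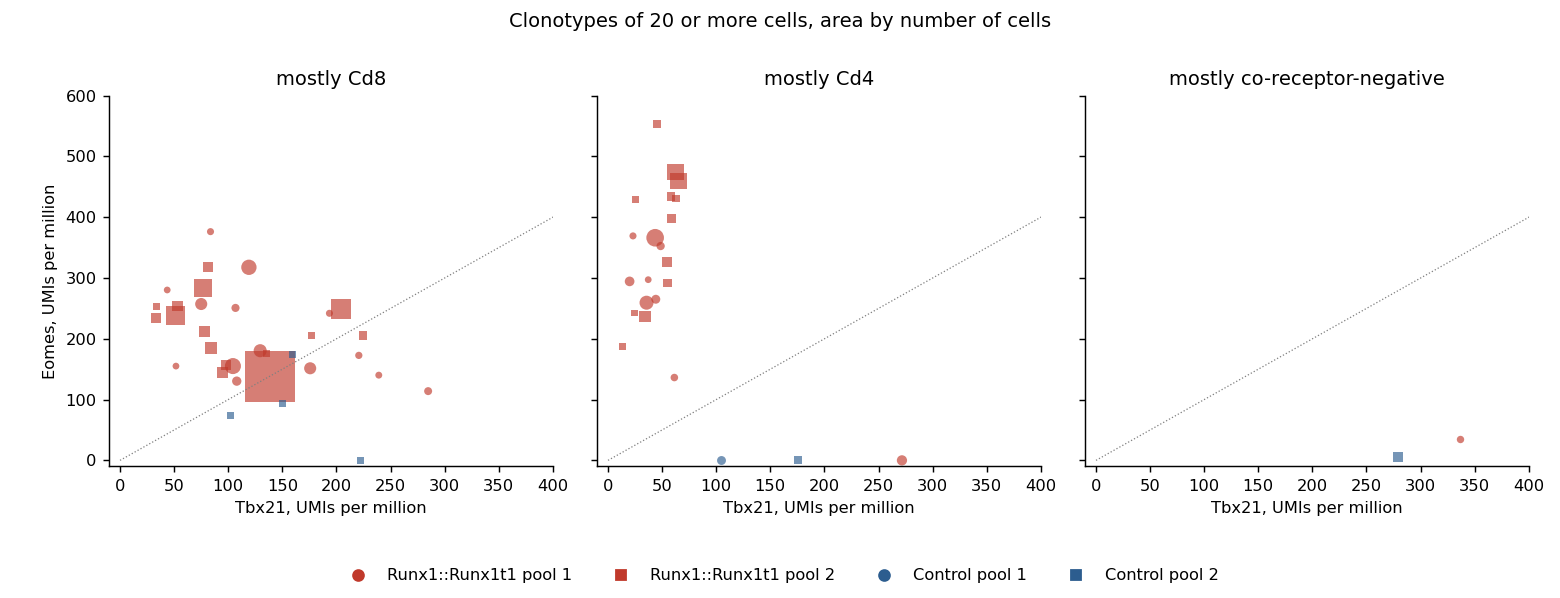
Eomes against Tbx21 in CPM for the 58 clonotypes of 20 or more cells, 1 panel per class and 1 point per clonotype, with area by number of cells, colour by group, marker by pool and a dotted guide line at equal CPM. The 21 mostly Cd4 clonotypes of the Runx1::Runx1t1 pools have a median Eomes of 326 CPM, 1 of them with no Eomes UMI, and the Control clonotypes lie at Eomes of at most 174.

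Other genes of the same programs were counted from fixed lists, first in expanded against single Cd8 T cells, where 11.3% of all genes were called higher and 11.5% lower. Of 14 genes linked to T-bet and Zeb2 in terminal effector cells, 12 were higher and none lower in expanded Cd8 T cells (median log2 difference 1.90, against 0.01 over all genes), led by the granzyme Gzma (4.30), the chemokine receptor Cx3cr1 (3.63) and the inhibitory receptor Klrg1 (3.29). Of 10 genes that Blimp-1, Hobit or Zeb2 repress, 9 were lower (median -1.83), among them the chemokine receptor gene Ccr7 (-4.33) and the transcription regulator genes Id3 (-2.26) and Lef1 (-2.20). Of 8 genes linked to Eomes, 1 was higher, the granzyme Gzmk (3.73), and 1 lower, the survival gene Bcl2 (-0.67), a share near that of all genes (22.8% called). Of 8 residency genes, Cxcr6 (2.31), Rgs1 (1.54) and Itga1 (1.41) were higher and the integrin Itgae was lower (-2.54). Of 16 other factors of effector or memory T cells, 8 were higher, led by Maf (2.67), Bhlhe40 (1.85) and Nr4a2 (1.63), and 1 was lower. All named values passed an adjusted p of 0.05 by edgeR.

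Between groups, in Cd8 T cells none of the 14 T-bet and Zeb2 genes, 8 Eomes genes, 8 residency genes or 16 other factors passed the test, and 1 of the 10 repressed genes did, Id3 (log2 fold change -0.78, edgeR adjusted p = 0.049). With 0.12% of all genes called there, a list of this size with no call does not stand apart. Ccl5 and Nkg7, highest in level of the T-bet and Zeb2 list, were at 1.34 (adjusted p = 0.0815) and 0.86 (0.118) there by edgeR. In Cd4 T cells, with 1.38% of all genes called higher and 0.73% lower, 3 of 14 T-bet and Zeb2 genes were higher and 1 lower, with the chemokine gene Ccl5 at 2.45, Nkg7 at 1.46 and the receptor gene Klrc1 at -1.78. Of the Eomes genes Gzmk was higher by 3.33 and the surface antigen gene Ly6c2 lower by -1.22. The other factors Bhlhe40 (1.01), Runx3 (0.70) and Batf (0.63) were higher, 3 repressed genes lower, among them Tcf7 (-0.58) and Id3 (-0.57), and none of the residency genes passed.

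In co-receptor-negative T cells, with 4.12% of all genes called higher and 2.3% lower, none of the 14 T-bet and Zeb2 genes was higher and 3 were lower, the integrin gene Itgam (-2.37), Klrc1 (-1.20) and the perforin gene Prf1 (-0.55). Gzmk was higher by 3.38, and Ly6c2 (-0.85) and Klrd1 (-0.79) were lower. Of the 16 other factors 9 were higher and none lower, led by Rora (1.26), Maf (1.19) and Irf4 (1.07). Of the residency genes Itgae (1.31) and Rgs1 (0.75) were among the higher and Itga1 (-0.69) among the lower, and of the repressed genes Ccr7 was among the higher (1.38) and Id3 among the lower (-0.64). The natural killer and regulatory T cell marker sums given above moved with these lists, and their part in them was not tested.

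Across the 12 sums of 3 classes in 4 pools, the genes most like each factor were found by Pearson's r of log CPM among 10169 genes, as a description over sums that share libraries. Nearest to Eomes were Ccl4 (r = 0.96), Paf1 (0.96), Chst11 (0.94), Gm33782 (0.94) and Ccl5 (0.94). Nearest to Tbx21 were Klhl25 (0.93) and Ogfrl1 (0.88), to Zeb2 Gm16575 (0.91), Rcc2 (0.90) and the Ly49 gene Klra3 (0.90), to Prdm1 Mxi1 (0.98) and the inhibitory receptor Tigit (0.97), and to Zfp683 Krt83 (0.99), Socs2 (0.98) and the cytokine Il4 (0.97). Among the factors themselves the values were -0.11 for Eomes and Tbx21, 0.45 for Tbx21 and Zeb2, -0.60 for Prdm1 and Tbx21 and -0.59 for Prdm1 and Zeb2.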

How the data were processed

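Gene expression and TCR libraries of 4 pools were measured. The authors aligned reads with Cell Ranger 6.1.2 to GRCm38 and deposited UMI counts of 32285 genes for called cells, without normalization; the deposited TCR contig tables hold UMI counts per contig. Barcodes under 200 genes or over 15% mitochondrial UMIs were left out, and Scrublet doublets were removed at an expected rate of 0.05; its threshold worked in Runx1::Runx1t1 replicate 2 only, and elsewhere the highest 5% of scores were removed (4.22 to 5.40% of barcodes). Counts were summed per pool and class and tested with edgeR 4.0.16 (TMM, filterByExpr with a minimum count of 10, quasi-likelihood, Benjamini-Hochberg, threshold 0.05), with DESeq2 1.42.0 as an alternative. SE is the log2 fold change over the square root of F. On simulated counts with 200 genes of above-median count changed by a log2 of 1.5, edgeR recovered all 200. It made 17 false calls for the Cd8 group difference over 13330 genes. The simulated pools varied only by the dispersion fitted as a trend over level, without the variation particular to each gene. The recovery therefore does not measure what 2 pools against 2 can miss in the real counts.

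No label gives a batch. The members and lists were chosen with earlier results of these data known, and no pattern is independent support. Besides the members, the rule named in each list the 2 to 4 called genes of largest change, or the 2 of highest level where none was called. Some genes that this rule or the likeness ranking picks are not reported here. Gene positions come from the reference annotation of GRCm38, motifs and promoters from RefSeq, which held no entry used here for Zfp683. For T cell classes, a stricter gate needed 2 co-receptor UMIs, or 5000 UMIs in all for co-receptor-negative cells. Other alternatives were RLE scaling, no low-count filter, no doublet removal, each clonotype once, no largest clonotype, each pool left out and a replicate block. Splits by Klrb1c, naive markers and single-cell clonotypes were chosen after seeing the data. Depth was 90958101 to 102883449 UMIs per library. Where a gene had no UMI, a floor of 3 counts over the UMIs of the cells summed gave the upper limit.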

Additional observations from a re-analysis of the deposited data

Results flagged for a closer look

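Eomes differed between groups by class. The group difference in Cd8 T cells exceeded that in co-receptor-negative T cells by 0.82 on the log2 scale, tested as an interaction (edgeR adjusted p = 0.0389), a call lost without Control replicate 1 (adjusted p = 0.166) and without Control replicate 2 (0.14). From the same counts, the log2 difference of co-receptor-negative and Cd8 T cells was -0.59 and -0.65 in the Runx1::Runx1t1 pools. In the Control pools it was 0.28 and 0.07, with mean differences -0.80 apart. Differences between classes, of each factor and of the Eomes to Tbx21 ratio, were listed here only where the groups had opposite signs in all pools. The opposite signs are therefore the rule of choice and not a result. The makeup of the co-receptor-negative class differed between groups, and its part in the Eomes difference was not tested.

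For Zfp683 the log2 difference of co-receptor-negative and Cd4 T cells was 0.39 and 0.97 in the Runx1::Runx1t1 pools and -0.20 and -0.70 in the Control pools, 1.13 apart, and this difference was not tested. For the log2 ratio of Eomes to Tbx21 the same difference of classes was -0.30 and -1.23 against 0.95 and 1.17, -1.83 apart, and it was not tested.

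Eomes was also found in cells outside the 3 classes. A factor was listed in such cells only where both Runx1::Runx1t1 pools lay above both Control pools beyond their counting intervals. Cells with UMIs of both co-receptors held it at 87.8 and 149 CPM in the Runx1::Runx1t1 pools (mean 118.56) and at 49.7 and 27.9 CPM in the Control pools. Cells with no Cd3 UMI held it at 26.4 and 20.6 CPM (mean 23.5) against 11.3 and 7.94 CPM. The part of doublets and of missed Cd3 RNA in these values was not tested.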

How the results depend on the processing

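Of the values for the 5 factors under the alternatives, 433 kept their direction and their side of the threshold, 26 gained a call, 22 lost one and 19 changed direction; for the list genes the numbers were 644, 43, 84 and 20. With 2 pools a group the count of called genes moved widely. For the group difference in Cd8 T cells (16 genes) it was 868 with DESeq2, 864 with no low-count filter, 8 with the stricter gate, 388 with each clonotype counted once, 524 without the largest clonotypes, 657 in single-cell clonotypes, and 725 and 46 in cells with 3 or 4 and with 0 or 1 naive markers. In Cd4 T cells (246 genes) it was 156 without the largest clonotypes and 54 and 155 by naive markers. In co-receptor-negative T cells (823 genes) it was 427 with the stricter gate, 1236 in cells with paired chains and 297 in cells with a Klrb1c UMI. For the difference of group differences (123 genes) it was 231 with DESeq2, 726 with no low-count filter, 55 with the stricter gate, 987 with each clonotype counted once and 597 without the largest clonotypes. Leaving out 1 pool gave 3 (Control replicate 1), 6 (Control replicate 2), 298 (Runx1::Runx1t1 replicate 2) or 1616 genes (Runx1::Runx1t1 replicate 1) in Cd8 T cells. It gave 84 (Runx1::Runx1t1 replicate 2) to 301 genes (Control replicate 2) in Cd4 T cells, 232 (Control replicate 1) to 1298 (Runx1::Runx1t1 replicate 1) in co-receptor-negative T cells and 1 (Control replicate 2) to 1908 (Runx1::Runx1t1 replicate 1) for the difference of group differences. It gave 1993 (Runx1::Runx1t1 replicate 1) to 4148 genes for co-receptor-negative against Cd8 (3889), 1824 (Control replicate 2) to 2763 against Cd4 T cells (3261), and 182 (Runx1::Runx1t1 replicate 1) to 2448 for expanded against single clonotypes (2901). With 1 pool left out, the lone pool of its group was assumed to vary like the others. The cause was not tested. Depth limits the scarce genes most: 126 to 265 Zfp683 UMIs stand behind each Cd8 value.

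Replicate numbers only number the pools, and deviations of same-numbered pools correlated at 0.26, 0.21 and 0.30 in the 3 classes over 2 pairs. With a replicate block 939 genes were called in Cd8, 409 in Cd4 and 1767 in co-receptor-negative T cells. In edgeR's quasi-likelihood test with the block, Prdm1 in Cd8 T cells (adjusted p = 0.0137) and Eomes in co-receptor-negative T cells (adjusted p = 0.0351) were called, where the adjusted p over all alternatives ran from 0.000148 to 0.502 and from 0.0351 to 0.475. The pairing left the differences of the Eomes to Tbx21 ratio at 1.24, 2.85 and 1.02, with an exact p of 0.5, the smallest that 2 pairs allow.

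None of the values that changed direction was called under the alternative that turned it; they follow as log2 differences. In Cd8 T cells Zeb2 was at -0.16 in single-cell clonotypes and -0.55 and -0.57 in cells rich and poor in naive markers, Tbx21 at 0.014 with the stricter gate, Cd69 at 0.013, 0.077 and 0.12, Ly6c2 at 0.076, 0.16 and 0.29, and Il2rg at 0.063, 0.10 and 0.11 with each clonotype once, in single-cell clonotypes and in marker-rich cells. Without the largest clonotypes Il2rg was at 0.011, and in marker-poor cells Nr4a1 was at -0.45. In Cd4 T cells Zeb2 was at 0.0695 in marker-rich cells and Cd69 at -0.044 with the stricter gate. In co-receptor-negative T cells Zeb2 was at -0.0036 with no filter, -0.26 with the stricter gate, -0.35 with paired chains and -0.18 with a Klrb1c UMI, and against Cd8 T cells at -0.088 with the stricter gate. With each clonotype once, Prdm1 in co-receptor-negative against Cd8 T cells was at 0.34, Nr4a1 in the difference of group differences at 0.018, and the share of Cd4 T cells with both Eomes and Tbx21 differed by -0.0404 points; with Klrb1c cells only, Gzmk in the difference of group differences was at 0.66. Leaving out 1 pool gave -0.20 to 0.48 for Zeb2, -0.80 to 0.10 for Zfp683, -0.32 to 0.13 for Tbx21, -0.37 to 0.034 for Ly6c2 and -0.079 to 0.047 for Il2rg in Cd8, -0.10 to 0.22 for Cd69 in Cd4 and -0.0098 to 0.023 for Zeb2 in co-receptor-negative T cells. It gave -0.27 to 0.15 for Prdm1 against Cd8, and -0.035 to 0.48 for Zfp683 and -0.19 to 0.61 for the Eomes to Tbx21 ratio against Cd4 T cells, and -0.21 to 0.47 for Zeb2 and -0.29 to 0.023 for Nr4a1 in the difference of group differences.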
